A study of Mus musculus with 15 samples.

Results

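The genes described here are 10 adipogenic factors and lipid droplet genes: the transcription factors Cebpa, Cebpb, Cebpd and Pparg, the fatty acid carriers Fabp4 and Cd36, the droplet coat proteins Plin2 and Plin4, the phosphatidate phosphatase Lpin1 and the secreted lipase inhibitor Angptl4. They were picked as named genes of 1 pathway, with earlier results of these data known, so counts among them are descriptions. Of the 10, 9 had a value among the 15025 genes with one, and 8 were bright enough to be tested among 10283 tested genes. Cebpd had no probeset under its name and was not analysed here, and Cd36 was too dim for the test.

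RNA was measured on 15 Affymetrix mouse exon arrays, which read each gene through several probesets, most of them in single exons. One line, 3134, was derived from C127, which came from a mammary adenocarcinoma of an RIII mouse, and the other, AtT-20, is a mouse line of anterior pituitary corticotrophs. Both are established lines kept in 10% charcoal-dextran-treated serum for 48 h and then given 100 nM dexamethasone, a synthetic glucocorticoid, for 2, 4 or 8 h. The controls are 0 h arrays, which the labels call untreated in one place and vehicle treated in another; no untreated array was matched to a later time. There were 2 arrays for every group but the 8 h one of AtT-20, which had 1. Whether the replicates came from different cultures is not stated, so the p-values cover the spread among arrays, possibly technical, and no more.

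Fat cell formation is driven by a cascade in which C/EBP-beta and C/EBP-delta act early and induce C/EBP-alpha and PPAR-gamma, which then keep each other on and switch on genes of lipid storage. Fabp4, Plin2, Plin4, Cd36, Lpin1 and Angptl4 are known PPAR targets in fat or other tissues. Glucocorticoid is a standard part of the cocktail that turns mouse preadipocyte lines into fat cells, and Angptl4, Lpin1 and Cebpd are known to respond to it in fat or liver. Neither line studied here is a fat cell line.

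Each array value is a log2 level after quantile normalization, and the level of a gene is the median over its probesets, so levels compare 1 gene between arrays and not 1 gene with another. The arrays of each line carry serial numbers in 2 series, called run 1 (lower) and run 2 (higher), and deviations from the group means correlated by 0.485 to 0.585 between same-run arrays of a line. Values with run as a block are therefore given where they change a call of these genes or a list's count. Both lines responded to the hormone: Fkbp5, a classic glucocorticoid target, rose by 2.84 ± 0.127 (log2, SE) in 3134 and by 0.91 ± 0.134 in AtT-20 (limma adjusted p = 3.32e-07 and 0.0199). AtT-20 carried the corticotroph markers, with Pomc at 13.23 and 6 of 7 markers at or above the log2 level of 6.29 needed for testing. In 3134 at 0 h, 6 of 7 mesenchymal markers reached that level (Vim 13.22, Fn1 13.12), and 2 of the 6 measured epithelial markers did (Krt14 7.03 and Krt8 6.77, but not Epcam at 4.32 or Cdh1 at 5.73). Of 8 mature adipocyte markers 3 reached it in 3134 at 0 h (Lipe 7.34, Plin1 6.86 and Cfd 6.85). The fat cell hormones Adipoq (4.33) and Lep (3.44) were low. In AtT-20 at 0 h 2 of the 8 reached it (Lipe 8.01 and Plin1 6.73).

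The promoters below belong to genes described next: Cebpb and Plin4, which rose, Pparg, which fell, and Lpin1, which was not called in either line. Lpin1 had its highest values in treated AtT-20 arrays, but its mean response there did not pass the test. Each is the RefSeq sequence (GRCm38.p6) from 250 bases before to 50 after a start site, written 5′ to 3′ on the strand of the gene. Capitals mark matches to AGAACA, the core site of the glucocorticoid receptor, or to TATAAA, the letters of a TATA box, on either strand. Lpin1 held the only AGAACA match among the promoters searched. No Pparg promoter other than the printed sequence held a match. A link between matches and responses was not tested. The sequences are Cebpb at chr2:167688665-167688964 (plus strand), Pparg (the second of 3 listed start sites) at chr6:115362099-115362398 (plus strand), Plin4 at chr17:56109733-56110032 (minus strand) and Lpin1 at chr12:16610917-16611216 (minus strand).
Cebpb: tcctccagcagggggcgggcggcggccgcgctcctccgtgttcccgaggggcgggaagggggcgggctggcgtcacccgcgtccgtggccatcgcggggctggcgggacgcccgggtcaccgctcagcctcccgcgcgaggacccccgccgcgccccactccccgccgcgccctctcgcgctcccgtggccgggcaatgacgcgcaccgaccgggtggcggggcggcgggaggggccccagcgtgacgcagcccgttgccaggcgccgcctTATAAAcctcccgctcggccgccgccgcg
Pparg promoter 2: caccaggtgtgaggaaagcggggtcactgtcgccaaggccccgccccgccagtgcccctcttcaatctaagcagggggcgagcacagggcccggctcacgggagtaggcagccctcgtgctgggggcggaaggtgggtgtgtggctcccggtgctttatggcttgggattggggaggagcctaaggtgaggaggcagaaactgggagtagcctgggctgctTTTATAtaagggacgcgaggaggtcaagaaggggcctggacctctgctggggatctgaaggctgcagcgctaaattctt
Plin4: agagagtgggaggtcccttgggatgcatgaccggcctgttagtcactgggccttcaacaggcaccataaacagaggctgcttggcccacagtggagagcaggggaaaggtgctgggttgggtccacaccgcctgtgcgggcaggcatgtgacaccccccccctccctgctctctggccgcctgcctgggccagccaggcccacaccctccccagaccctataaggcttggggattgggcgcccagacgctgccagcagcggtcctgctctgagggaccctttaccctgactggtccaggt
Lpin1: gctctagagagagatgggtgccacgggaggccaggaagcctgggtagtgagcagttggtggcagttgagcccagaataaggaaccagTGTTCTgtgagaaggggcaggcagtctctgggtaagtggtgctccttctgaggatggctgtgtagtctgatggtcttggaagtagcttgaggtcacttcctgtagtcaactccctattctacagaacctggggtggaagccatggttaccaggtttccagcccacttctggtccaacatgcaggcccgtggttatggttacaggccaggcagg

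Sequences were at hand for 7 of the 10 genes, as 9 promoters. AGAACA was found on the minus strand of the Lpin1 promoter at position -163, and 19.0% of the 32851 promoters in the table held it. TATAAA was found at -30 in the Cebpa promoter, at 21 bases after the listed start in that of Cebpb and, on the minus strand, at -29 in Pparg promoter 2, against 13.6% of all promoters. The spaced palindrome of the glucocorticoid receptor and the C/EBP palindrome TTGCGCAA were in none of the 9 (0.475% and 0.183% of all promoters). A match is a run of letters in this window and not a shown binding site.

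In 3134 cells, the levels of Fabp4, Plin4 and Cebpb rose after dexamethasone and that of Pparg fell, against 0 h arrays as the only controls. Averaged over 2, 4 and 8 h, Fabp4 was 3.67-fold, Plin4 2.59-fold and Cebpb 1.71-fold above 0 h, and Pparg was 3.07-fold below it. RNA came from whole cultures, so a change in every cell and a change in the share of cells expressing a gene cannot be told apart. Cebpa, Plin2 and Lpin1 had no call, and Angptl4 passed in some alternatives only. These 4 of 8 tested genes called stand beside 2.32% of all tested genes called in the mean response (5 of 8 and 6.17% with run as a block). Fabp4 passed the filter on dim genes only through its treated groups, and Pparg only through 0 h. Without that filter Fabp4, Pparg and Plin4 were called (limma adjusted p = 0.000741, 0.000725 and 0.00134) and Cebpb was not (0.0952). In that fit 188 of all 15025 genes were called.

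**Figure D1:**
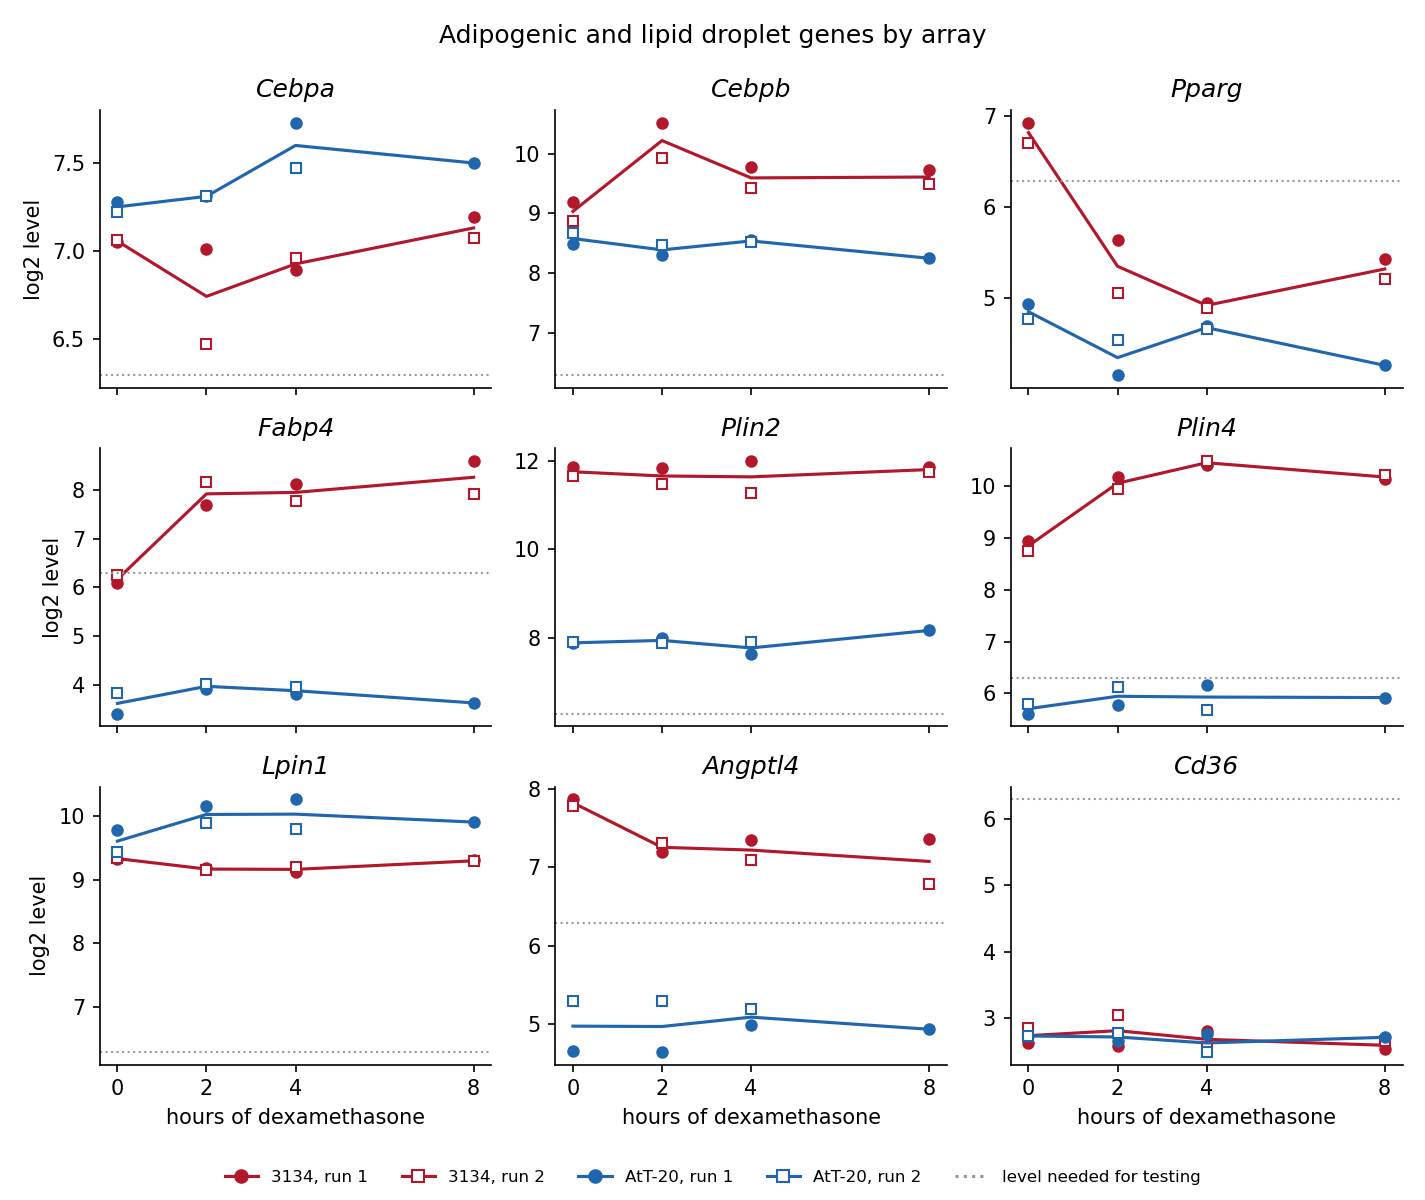
Log2 level of 9 genes on each array (vertical axis, own range in each panel) against hours of dexamethasone, for 3134 (red) and AtT-20 (blue). Filled circles are run 1, open squares run 2, lines join group means, and the dotted line is the level of 6.29 that 1 group mean had to reach for testing; in 3134 Fabp4 and Plin4 rise and Pparg falls by 2 h.

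Cebpb, the early factor of the cascade, stood at 9.20 and 8.87 on the 0 h arrays of 3134, and the 2 h arrays read 10.52 and 9.92. The 4 h arrays read 9.77 and 9.42, the 8 h arrays 9.73 and 9.49. All 6 treated arrays lay above both 0 h arrays, with the highest values at 2 h. The change was 1.19 ± 0.22 (log2, SE) at 2 h (limma adjusted p = 0.0222), against 1.17% of all genes called at that time. At 4 h it was 0.56 (adjusted p = 0.436, and 0.0358 with run as a block) and at 8 h 0.57 (0.308, and 0.025 with the block). The fall from 2 to 8 h was -0.61 ± 0.22 (adjusted p = 0.482, and 0.0441 with the block), and all 6 Cebpb probesets were lower at 8 h than at 2 h. The mean response of 0.77 ± 0.18 passed narrowly (limma adjusted p = 0.0485) and was 0.81 within run 1 and 0.74 within run 2. It ran from 0.61 to 0.94 when single arrays were left out. Of 9 alternatives 4 kept the call. It was lost with median-centred arrays (limma adjusted p = 0.103), without the filter on dim genes (0.0952) and with bright probesets only (0.0572).

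Pparg, the nuclear receptor that is the master regulator of fat cells, stood at 6.93 and 6.71 on the 0 h arrays of 3134. The 2 h arrays read 5.64 and 5.06, the 4 h arrays 4.95 and 4.89, and the 8 h arrays 5.43 and 5.21. All 6 treated arrays lay below both controls and below the level of 6.29, so the gene was tested only because of its 0 h level. The fall was -1.47 ± 0.211 at 2 h, -1.90 ± 0.211 at 4 h and -1.50 ± 0.211 at 8 h (limma adjusted p = 0.0045, 0.000485 and 0.00257). The mean response was -1.59 within run 1 and -1.65 within run 2. With the mean over probesets as the gene level, Pparg stayed below the filter and could not be tested.

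Cebpa, the factor that maintains the fat cell state together with PPAR-gamma, showed no detectable change in its gene level. Its 0 h arrays in 3134 were at 7.05 and 7.06, and the 6 treated arrays ran from 6.47 to 7.19 and overlapped them. The mean response was -0.12 ± 0.151, with a 95% interval of -0.45 to 0.21 (limma adjusted p = 0.968). This level is the median of 4 probesets, of which 2 had a response above 0 and 2 below. Probeset 5366814 lay below both controls on all 6 treated arrays (mean response -0.54), while 5581531 was at 0.61.

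Fabp4, the fatty acid binding protein of fat cells and macrophages, stood at 6.08 and 6.25 at 0 h in 3134. The 2 h arrays read 7.68 and 8.15, the 4 h arrays 8.12 and 7.77, and the 8 h arrays 8.59 and 7.92. All 6 treated arrays lay above both controls by more than 1 log2 unit. The 0 h mean of 6.16 and all AtT-20 groups were below 6.29, so Fabp4 was tested only through the treated groups where it is high. The change was 1.75 ± 0.248 at 2 h, 1.78 ± 0.248 at 4 h and 2.09 ± 0.248 at 8 h (limma adjusted p = 0.00443, 0.00249 and 0.000711). Averaged over the times it was 2.05 within run 1 and 1.70 within run 2. Of 7 macrophage markers 3 reached the tested level in 3134 (Cd68, Cd14 and Lyz2), while Adgre1 (3.88) and Ptprc (3.71) were low; the list's summed level was 9.01 to 9.16 at 0 h and 8.95 to 9.21 on treated arrays. The summed level of the adipocyte list was 8.96 to 9.16 at 0 h and 8.91 to 9.35 on treated arrays. The part of either list in the Fabp4 result was not tested.

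Plin4, a coat protein of small lipid droplets, rose at each time. It stood at 8.94 and 8.75 before hormone in 3134; later arrays read 10.17 and 9.93 (2 h), 10.41 and 10.48 (4 h), and 10.14 and 10.20 (8 h). All 6 treated arrays lay above both controls. The change was 1.20 ± 0.196, 1.60 ± 0.196 and 1.33 ± 0.196 at the 3 times (limma adjusted p = 0.0101, 0.00105 and 0.00362). Averaged over the times it was 1.30 within run 1 and 1.45 within run 2.

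Plin2, the coat protein found on droplets of nearly all cells, did not change detectably. Its 0 h arrays in 3134 were at 11.86 and 11.65, and the treated arrays ran from 11.28 to 12.00. The mean response of -0.05 had a 95% interval of -0.46 to 0.35. A change of the size seen for Plin4 lies outside that interval.

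Angptl4, an inhibitor of lipoprotein lipase, stood at 7.87 and 7.78 at 0 h in 3134. Later arrays read 7.20 and 7.31 (2 h), 7.35 and 7.09 (4 h), and 7.36 and 6.79 (8 h). All 6 treated arrays lay below both controls, and so did those of 8 of its 10 probesets. The mean response was -0.64 ± 0.22 (limma adjusted p = 0.258, 0.0172 with run as a block, and 0.046 with the mean over probesets as the gene level), with -0.57 within run 1 and -0.72 within run 2. Lpin1, which makes diacylglycerol for triglyceride synthesis, was at 9.33 and 9.34 at 0 h and between 9.13 and 9.31 on treated arrays of 3134, a mean response of -0.12 (95% interval -0.46 to 0.22). Cd36, a fatty acid transporter of the cell surface, stayed between 2.49 and 3.04 on all 15 arrays.

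By time, 4 of 8 genes were called at 2 h, 3 at 4 h and 3 at 8 h in 3134. The background was 1.17% of all tested genes at 2 h, 1.88% at 4 h and 2.14% at 8 h. With run as a block, 5 were called at 8 h (Cebpb and Angptl4 added), where 7.62% of all genes were. The 2 h calls depended on single arrays: 0 genes were called without the first 0 h array, 2 without the second (Pparg and Fabp4), 2 without the first 2 h array (the same genes) and 1 without the second (Cebpb). At 4 h all 3 calls stood whichever array was left out, and at 8 h Plin4 missed the threshold once, without the second 0 h array. Between 2 and 8 h 0 genes were called by limma (1 with an unadjusted p under 0.05, and 1 with the block), where 0.146% of all genes were (1.94% with the block).

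**Figure D2:**
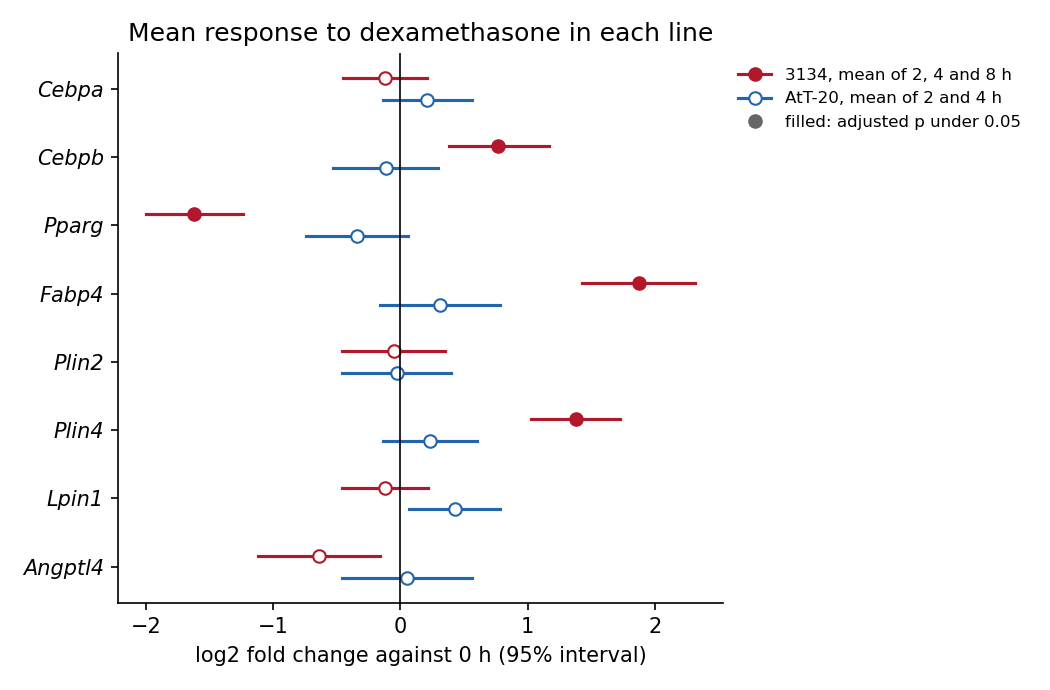
Mean response of the 8 tested genes to dexamethasone as log2 fold change against 0 h, with 95% intervals from limma, for 3134 (red, mean of 2, 4 and 8 h) and AtT-20 (blue, mean of 2 and 4 h). Filled points have an adjusted p under 0.05; they are Cebpb, Pparg, Fabp4 and Plin4 in 3134.

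In AtT-20 cells none of the 8 genes passed the test. The count was 0 by limma at 2, 4 and 8 h and in the mean of 2 and 4 h, also with run as a block, while 2, 1, 1 and 1 of them had an unadjusted p under 0.05. The background was as low, at 0.0875%, 0.165% and 0.107% of all tested genes called at 2, 4 and 8 h and 0.175% in the mean response. The 8 h group is 1 array, assumed to vary like the others. It belongs to run 1, while the 0 h arrays come from both runs. The Lpin1 change at 8 h, for example, was 0.30, and 0.12 with run as a block.

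Lpin1 had the highest mean response in this line. It stood at 9.78 and 9.44 before hormone; treated arrays read 10.16 and 9.90 (2 h), 10.27 and 9.80 (4 h), and 9.91 (8 h). All 5 treated arrays lay above both controls. The mean response was 0.43 ± 0.163 (95% interval 0.07 to 0.78, limma adjusted p = 1, and 0.151 with run as a block), and 0.44 and 0.41 within the runs. All 23 Lpin1 probesets had a response above 0 in AtT-20, from 0.28 to 1.10, against 2 of 23 in 3134; probesets of a gene share arrays and are not replicates.

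Pparg was dim in AtT-20, at 4.93 and 4.77 at 0 h and between 4.15 and 4.69 on the 5 treated arrays, all below both controls. The mean response was -0.34 (adjusted p = 1), but 8 of the 12 probesets taken alone had a response above 0, and with bright probesets only its sign turned, to 0.37. Fabp4 (3.41 to 4.02), Plin4 (5.61 to 6.17) and Angptl4 (4.64 to 5.29) were below the tested level on all 7 AtT-20 arrays. Cebpb lay between 8.25 and 8.67 (mean response -0.11, 95% interval -0.53 to 0.30), Plin2 between 7.64 and 8.17 and Cebpa between 7.22 and 7.73.

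Of the 8 genes, Pparg alone passed the test of a difference in response between the lines, and narrowly. Its response over 2 and 4 h, the times with 2 arrays in both lines, was lower in 3134 than in AtT-20 by -1.34 ± 0.258 (limma adjusted p = 0.0467, against 0.564% of all genes called). With run as a block 4 genes were called, where 2.61% of all genes were: Pparg (0.00326), Cebpb (0.99, adjusted p = 0.0064), Fabp4 (1.46, 0.0125) and Plin4 (1.17, 0.0145). Without the block the last 3 had adjusted p of 0.214, 0.064 and 0.061. The Pparg call was kept in 1 of 12 fits that each left out 1 array, the one without the first 2 h array of 3134, and was also lost with median-centred arrays (0.0594) and without the filter on dim genes (0.101). Pparg, Fabp4 and Plin4 lay below the tested level on all 7 AtT-20 arrays. Pparg was tested only through the 0 h arrays of 3134 (mean 6.82), and the sign of its AtT-20 response turned with bright probesets alone (0.37).

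The lines also differed at 0 h. Plin2 was 14.6-fold, Plin4 8.84-fold, Angptl4 7.23-fold, Fabp4 5.84-fold and Pparg 3.92-fold higher in 3134 than in AtT-20 (limma adjusted p from 3.35e-08 for Plin2 to 6.69e-06 for Pparg). These 5 of 8 stand beside 53.7% of all tested genes called between the lines, so the count is near the background; 23.8% of all genes were called higher in 3134. Plin4, Angptl4, Pparg and Fabp4 were below the tested level in AtT-20 (5.70, 4.97, 4.85 and 3.62), and Fabp4 in 3134 too (6.16), so these folds are against dim values. With the lines compared over 0, 2 and 4 h together, the log2 difference was 1.08 for Pparg, against 1.97 at 0 h, and 3.52 for Fabp4, against 2.55. Cebpb was higher by 0.46 (adjusted p = 0.1, and 0.0103 with run as a block), and Cebpa and Lpin1 differed by -0.19 and -0.28 (0.413 and 0.245). Line and tissue of origin cannot be told apart with 1 line of each.

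Single probesets showed how far the parts of a gene moved together in 3134. All 13 Plin4 probesets rose on every treated array above both controls, with mean responses from 0.57 to 1.58. All 6 Cebpb probesets had a response above 0, and 11 of 12 Fabp4 probesets did, 10 of them with every treated array above both controls. Of the 12 Pparg probesets 10 had a response below 0, 8 of them with every treated array below both controls, from -2.52 upwards.

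**Figure D3:**
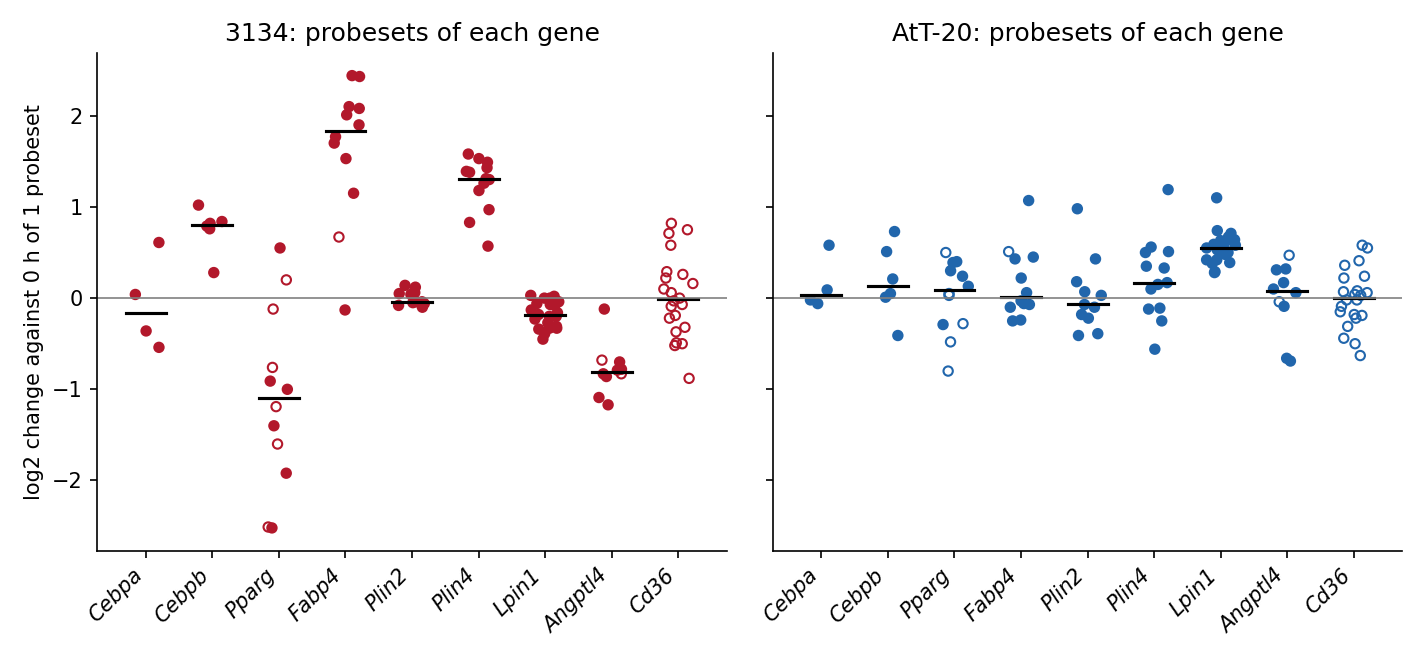
Mean response of each probeset (vertical axis, log2 change against 0 h) for 9 genes in 3134 (left) and AtT-20 (right). Filled points are probesets whose highest group mean reached log2 6.74, open points are dimmer ones, and bars are medians; in 3134 the 13 Plin4 probesets lie between 0.57 and 1.58, and in AtT-20 all 23 Lpin1 probesets lie above 0.

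Within Fabp4 the probeset means of 2 arrays followed different courses. The brightest ones rose up to 8 h, as probeset 4798563 did from 9.45 at 0 h to 10.99, 11.50 and 11.89. Others were highest at 2 h, as probeset 5106507 was, which went from 5.64 to 7.64, 7.04 and 6.83. Of 11 bright Fabp4 probesets 8 were higher at 8 h than at 2 h and 3 were lower. For the gene as a whole the change from 2 to 8 h was 0.34 (limma adjusted p = 0.846). It differed in sign between the runs, at 0.91 in run 1 and -0.23 in run 2. Probeset 4348490 stood apart, at 8.67 at 0 h and 8.49, 8.60 and 8.55 after it; in AtT-20 it went from 7.64 to 8.42, 9.00 and 9.10, where the gene as a whole was dim.

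In Pparg, probeset 4400848 moved against the others, from 7.58 at 0 h to 7.82, 8.17 and 8.39 in 3134, and from 7.79 to 7.81, 8.56 and 8.45 in AtT-20. Probeset 5210734 fell in 3134 from 7.32 to 5.15, 4.59 and 4.66 and was near 3 throughout AtT-20. The diffSplice test of unequal change called Pparg and Fabp4 (adjusted p = 0.00846 and 0.0276, against 0.259% of 11209 genes). That test takes 1 spread for all probesets of a gene, and on simulated data whose probesets had unequal spread it made more false calls than true ones. A test with the own spread of each probeset, added for that reason after the data were seen, kept false calls few and called 0 genes of all (0% of 11209, with 224 at an unadjusted p under 0.05). In it Pparg had an adjusted p of 0.0796 (0.0262 with run as a block) and Fabp4 of 1 (0.108 with the block), so unequal change among their exons is not established here.

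**Figure D4:**
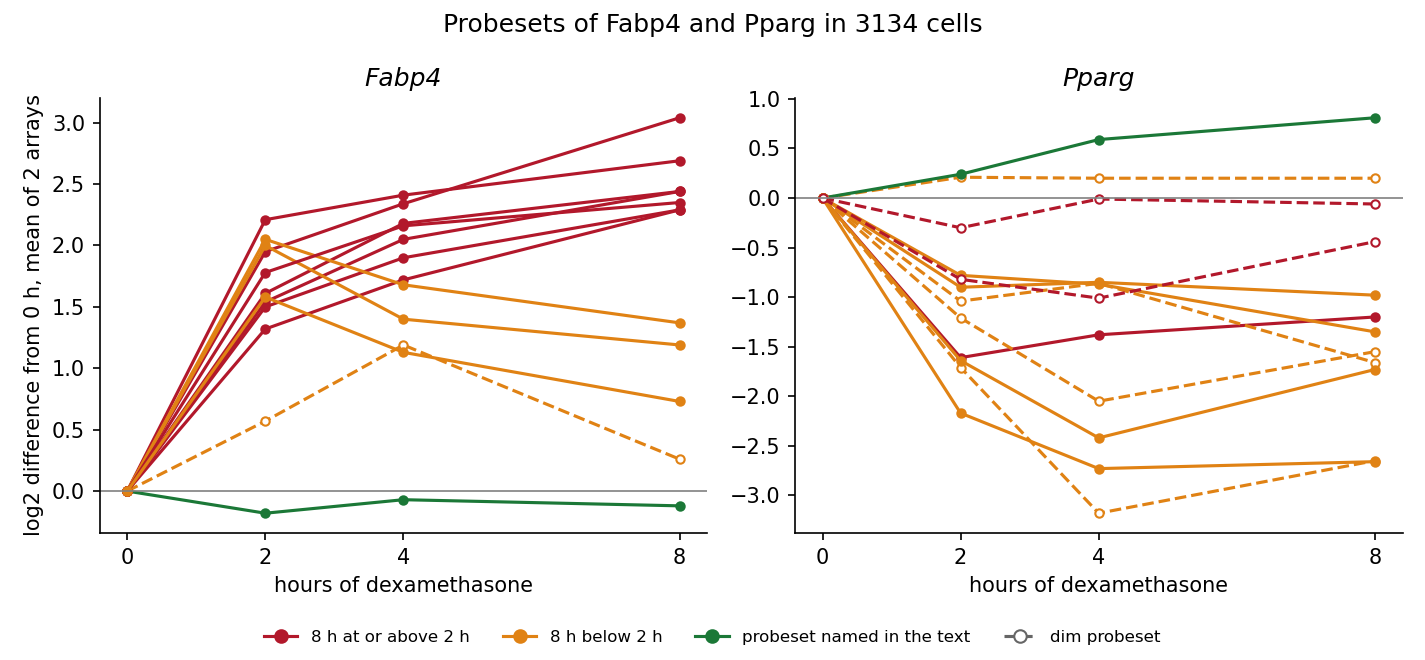
Difference from 0 h (vertical axis, log2, mean of 2 arrays) of each Fabp4 (left) and Pparg (right) probeset in 3134 against hours of dexamethasone. Red probesets were at or above their 2 h value at 8 h, orange ones below it, green marks probesets 4348490 and 4400848, and dashed lines are dim probesets; the Fabp4 courses part after 2 h, and 1 bright Pparg probeset rises while the other 5 fall.

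Genes with the most similar pattern to each called gene were found by Pearson r over the 15 arrays after the mean of each line was taken off. The arrays share lines, runs and times, and both the 0 h and the treated arrays of 3134 are among them, so the values are descriptions. For Plin4 the nearest were Map3k6 (r = 0.952, log2 change 1.43 in 3134) and Abhd6 (0.942, 1.40), and for Fabp4 Tent5b (0.953, 1.97) and Six4 (0.940, 1.11). For Pparg they were Chst1 (0.947, -1.21) and Cd300lb (0.906, -1.78), and for Cebpb Cdkn1a (0.907, 1.14), the cell cycle inhibitor p21, and Asxl2 (0.902, 0.43).

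Other genes of the same pathways were followed through 5 lists. Among the other adipogenic regulators, 4 of 35 tested genes rose and 2 fell in the 3134 mean response, with a median of 0.10 against -0.02 over all genes; 2.32% of all tested genes were called. With run as a block 7 rose and 3 fell, against 6.17% of all genes, Klf2, Id2 and Zfp36 (0.81, 0.65 and 1.21) and Egr2 (-0.78) being added. Klf15, a glucocorticoid-induced factor that promotes fat cell formation, rose by 1.62 ± 0.217 (limma adjusted p = 0.00128), and it was the one gene of the 5 lists called in AtT-20, at 1.55 ± 0.23 (0.0199). In AtT-20, 0.175% of all tested genes were called in the mean response, and 0.71% with run as a block. The block added 2 there, Dlk1 at 0.68 (adjusted p = 0.015 with it, 0.872 without) and Lpin2 at 0.80 (0.0369 and 0.515). Trib2 and Trib1, pseudokinases that promote the breakdown of C/EBP proteins, rose by 1.03 and 0.71 (0.00466 and 0.0172). Ddit3, a C/EBP relative that blocks C/EBP dimers from binding their usual sites, fell by 0.92 on the log2 scale (0.0186). The remaining calls were Wnt10b, a Wnt ligand that holds back fat cell formation, at 1.07 (0.0381), and the Notch target Hes1, which fell from 7.51 at 0 h (0.0249).

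The counts for genes of storage and synthesis were near the 2.32% of all genes called. With run as a block 6.17% of all genes were called in the mean response. Of 14 other lipid droplet and lipolysis genes 0 were called in the mean response (median 0.08). Hsd17b11, a droplet protein, was at 0.70 (limma adjusted p = 0.071, and 0.0144 with run as a block) and was the 1 of 14 called at 8 h, at 1.10 (adjusted p = 0.0213, where 2.14% of all genes were called), and the lipases Pnpla2 (0.39) and Lipe (0.20) and the acyl-CoA synthetase Acsl3 (-0.32) missed the threshold. Of 25 triglyceride and fatty acid synthesis genes 0 were called (median -0.04). With the block Lpin3, a relative of Lpin1, was called at 0.78 (adjusted p = 0.00624 with it, 0.141 without) and the elongase Elovl6 at -0.68 (0.00277 and 0.117), while Fasn (-0.30) and Agpat5 (-0.42) were not. Of 11 uptake, binding and lipase system genes 0 were called (median 0.01), Slc27a4, Got2, Cav2 and Lrp1 having the smallest p-values, at 0.29, 0.12, -0.40 and -0.30.

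Among 15 fatty acid oxidation genes Pdk4 was the one call, against 2.32% of all genes. Pdk4, the kinase that shuts off pyruvate dehydrogenase and spares glucose, rose in 3134 by 3.56 ± 0.146 (limma adjusted p = 2.61e-07) from a 0 h level of 6.48, and in AtT-20 it was dim (4.41 at 0 h) and at -0.45 (adjusted p = 1). Cpt1a, which admits fatty acids to mitochondria, was at -0.43 in 3134 (0.253, and 0.04 with run as a block, where 6.17% of all genes were called). The list's median was 0.04.

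**Figure D5:**
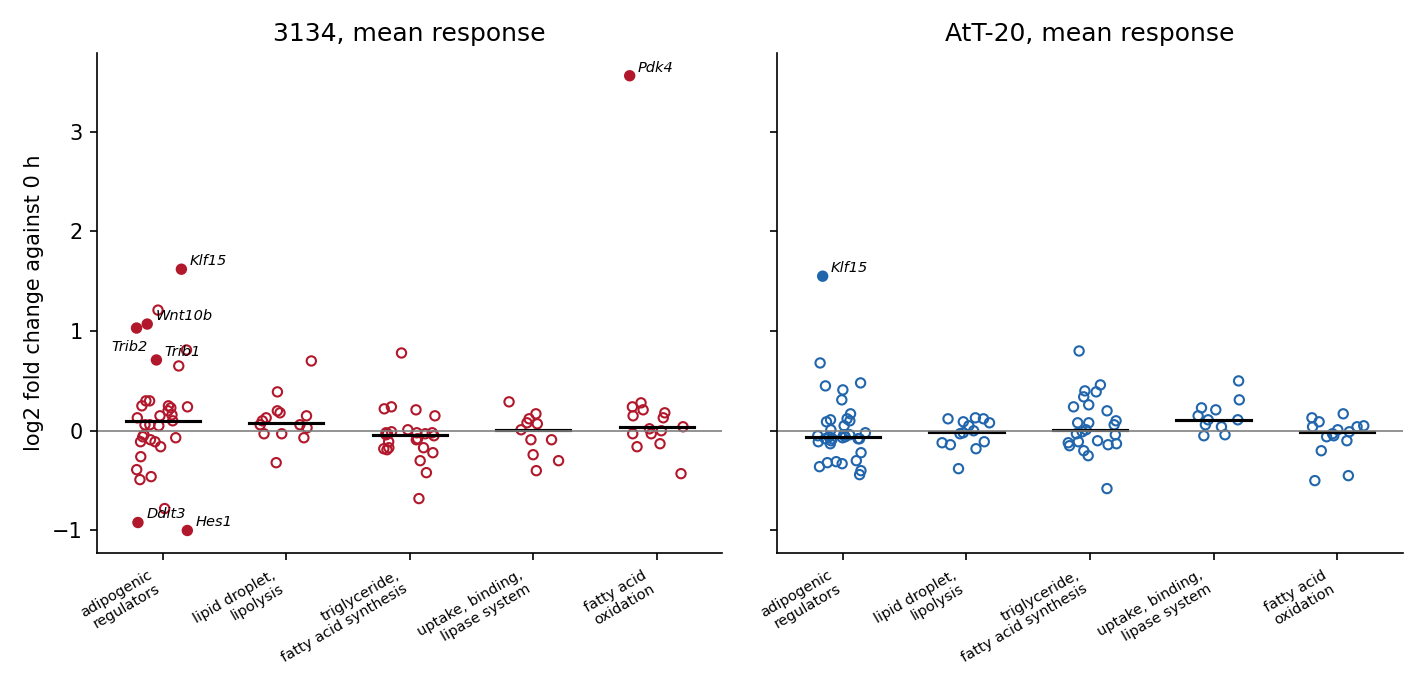
Mean response (vertical axis, log2 fold change against 0 h) of each tested gene of 5 lists in 3134 (left) and AtT-20 (right). Filled, named points have an adjusted p under 0.05 and bars are list medians; calls lie among the adipogenic regulators, apart from Pdk4, and Klf15 is the one call in AtT-20.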

How the data were processed

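The deposited values are log2 levels of 228090 probesets on 15 arrays, which the authors made with RMA in Affymetrix Expression Console, according to the notes on processing (no version given in the sources used here). Column medians were 7.51 to 8.14 in run 1 and 6.76 to 7.22 in run 2, so the arrays were quantile normalized together. Of the probesets, 207232 had 1 gene symbol in the platform annotation and were used, 3882 had several and 16976 none; 2111 symbols were updated through RefSeq (GRCm38.p6), Plin2 and Plin4 being listed as Adfp and S3-12. A gene needed 3 probesets, and was tested if its highest group mean reached the 40th percentile of gene values (log2 6.29). Means of 8 groups were fitted with limma 3.58.1 (lmFit, eBayes, 2-sided, 7 residual degrees of freedom) (R 4.3.3, with tables read by data.table, version 1.17.8), with Benjamini-Hochberg adjustment over all tested genes and a threshold of 0.05. The mean response averages 2, 4 and 8 h in 3134 and 2 and 4 h in AtT-20. All time comparisons of 1 line use the same 0 h arrays.

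Unequal change among probesets was tested with limma's diffSplice. It failed when tested on simulated data with unequal probeset spread, so its calls are not relied on. The limma fit of genes was tested on simulated data too, for the 3134 mean response. A simulated log2 change of 0.5 was called in 6% of 50 genes, and a change of 1 in 88%, with 8 false calls. Changes near 0.5 were mostly missed there. In both simulations the arrays varied independently, with no shared run effect, unlike the real same-run arrays. These rates therefore need not hold for the real arrays. Groups come from the sample titles; run numbers are the order of serial numbers there, taken as paired because same-run arrays deviated together (r from 0.485 to 0.585 within a line over 9 pairs, 0.272 to 0.385 across lines over 12), and the labels do not say what the serial numbers mark. The genes and lists were chosen with earlier results of these data known. Named genes are all 10, up to 4 genes of each list with the smallest p in 3134, Fkbp5 and Per1 as checks of the hormone (Per1 rose by 2.49 in 3134 and 1.25 in AtT-20), and 2 similar genes for each called one; Wnt10b, Hes1, the genes added by the block and the single probesets named were chosen after their values were seen. Alternatives were the deposited scale, median-centred arrays, run as a block, other filters, other gene summaries and each array left out. The number of arrays limits the precision.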

Additional observations from a re-analysis of the deposited data

Results flagged for a closer look

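The response of Pparg over 2 and 4 h was lower in 3134 than in AtT-20 by -1.34 on the log2 scale, and limma's test of the difference itself gave an adjusted p of 0.0467. The difference was -1.12 within run 1 and -1.56 within run 2. Pparg was below the level needed for testing on all 7 AtT-20 arrays and on all 6 treated arrays of 3134, and the call was lost in 11 of 12 fits that left out 1 array.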

How the results depend on the processing

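With the deposited values as they are, whose 2 runs lie on different levels, 0 of the genes were called in 3134 at 2, 4 and 8 h, in the mean response, in the line difference and in unequal change among probesets; the median of all genes then moved by up to 0.48 (AtT-20 at 8 h). With run as a block added to that scale, chosen after seeing the data, 4 were called at each time and in the mean response of 3134. Of all 10443 genes tested there, 180, 474 and 1154 were called at 2, 4 and 8 h and 545 in the mean response. Most calls at 4 and 8 h were lower (339 and 1022), and the median of all genes there was -0.307 and -0.362. Of the genes described here, 1 was called between 2 and 8 h and 2 in the line difference, against 266 and 147 of all genes. The 4 were not the same genes throughout. Cebpb was among them at 2 h but not at 4 h, at 8 h or in the mean response. Angptl4 was called there in its place (limma adjusted p = 0.0206, 0.0033 and 0.00249). The replicate block by run on normalized values gave 5 at 8 h in 3134, 1 between 2 and 8 h and 4 in the line difference; every call made without it held with it. The line difference was 1 gene as reported. Square brackets here hold the calls among all tested genes. It gave 0 with median-centred arrays [53 of 10295] and 0 without the filter [40 of 15025]. The filter at the 60th percentile, which drops Pparg, gave 2 [72 of 7608]. With the mean over probesets there were 3 (Fabp4, Plin4 and Lpin1) [138 of 10101], and with bright probesets only 2 [59 of 11209]. The filter at the 60th percentile left 3 at 0 h between the lines, where 4254 of all 7608 genes were called. The mean over 0, 2 and 4 h, added after seeing the data, gave 8, where 7314 of all 10283 genes were called. Unequal change, called for 2 genes in diffSplice, was called for 1 with the filter at the 60th percentile [18 of 8812] and 1 with an F test [29 of 11209]. It was called for 0 with the own spread of each probeset [0 of 11209] and 1 with that and the replicate block [16 of 11209].

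Leaving out 1 array at a time gave 0 to 2 calls at 2 h, 3 at 4 h, 2 to 3 at 8 h and 3 to 4 in the mean response of 3134, 0 to 1 in the line difference, 5 between the lines at 0 h, 0 between 2 and 8 h, and 0 in each AtT-20 comparison. The call of Cebpb in the mean response was kept in 2 of 8 such fits, those of Pparg, Fabp4 and Plin4 in 8 of 8. Over all genes, the mean response of 3134 gave 239 calls, 634 with the block, 388 with the mean over probesets and 24 on the deposited scale; of the 239, 176 were higher and 63 lower, against 161 and 384 on the deposited scale with the block, where the median of all genes was -0.251. No called direction of the 8 genes turned in any alternative run. With 7 residual degrees of freedom, small changes such as that of Lpin1 in AtT-20 cannot be told from no change. Whether a dim level limited how far a gene could fall was not tested.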
